A study of Mus musculus with 4 samples.

Results

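Promoters that carried an H3K27ac peak in the EGFP- cells of both the limb and the trunk, and in neither EGFP+ population, formed a set of 351 regions among 19907 promoter regions and 62558 regions in all. H3K27ac is acetylation of lysine 27 of histone H3, a mark found at active promoters and enhancers. The members were chosen from the peak calls themselves. In each of the 4 peak lists, entries that shared both ends became 1 interval, overlapping intervals of the 4 lists were merged into regions, and a region counted as a promoter region where it touched the window of a protein-coding start site, which began 2 kb before the site and ended 500 bp after it. A member overlapped an interval of limb EGFP- cells and one of trunk EGFP- cells and no EGFP+ interval of either tissue. The presence and the absence of the peaks are therefore what the selection used, and the counts that follow from them are descriptions. The members made up 1.76% of the promoter regions (exact binomial 95% interval 1.58 to 1.96%) and 2.55% of the 13751 promoter regions that had both EGFP- intervals.

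The study mapped regulatory regions of chondrocytes, the cells that build cartilage, in Col2a1EGFP fetuses at E14.5. A fluorescent sensor made of a minimal promoter and EGFP had been inserted upstream of Col2a1, the gene of the main cartilage collagen, in male G4 embryonic stem cells, and fetuses were derived from these cells by tetraploid complementation. All 4 populations carried this allele, and no treatment of the fetuses is described. The populations were limb EGFP+, limb EGFP-, trunk EGFP+ and trunk EGFP- cells, sorted by fluorescence from pooled fetuses, with 1 library per population. For cells meant for H3K27ac ChIP, the study's methods add sodium butyrate to the solution used for sorting and to the ChIP buffers. EGFP- cells were all cells without sensor signal, so that muscle, vessels, blood, nerves, skin and the mesenchyme outside cartilage were measured together, and fewer cells of a type and less acetylation per cell cannot be told apart. In the trunk EGFP- list the peaks are named as replicate 2 although the sample is labelled replicate 1, and the latter was followed. The libraries of the 2 tissues were run on separate lanes, and an effect of the lane cannot be told apart from one of the tissue.

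At a promoter, acetylated nucleosomes flank the site where RNA polymerase starts. Promoters of genes that most cells use are typically rich in CG dinucleotides (CpG islands) and acetylated in many tissues, whereas promoters of genes of a single cell type are more often poor in CpG and acetylated in that type alone. Many genes have several start sites, and each can carry its own mark.

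Sequences of 201 bases around the strongest EGFP- summit are shown for 6 members whose genes are named in the results, to set members with few CpG beside members with many. They are read from GRCm39 in the direction of the gene, at chr10:17672104-17672304 (+) for Txlnb, chr4:94627430-94627630 (+) for Tek, chr10:97315576-97315776 (+) for Dcn, chr1:164624186-164624386 (+) for Dpt, chr11:69686465-69686665 (-) for Chrnb1 and chr6:17464200-17464400 (+) for Met. Capitals mark CG dinucleotides.
Txlnb: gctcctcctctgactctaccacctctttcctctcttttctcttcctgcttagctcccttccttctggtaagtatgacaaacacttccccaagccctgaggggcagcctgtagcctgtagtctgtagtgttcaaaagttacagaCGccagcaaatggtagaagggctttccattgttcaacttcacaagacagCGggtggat
Tek: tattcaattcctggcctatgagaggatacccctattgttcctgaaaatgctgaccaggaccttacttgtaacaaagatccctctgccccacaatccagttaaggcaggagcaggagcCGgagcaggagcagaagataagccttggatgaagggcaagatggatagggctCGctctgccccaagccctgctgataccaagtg
Dcn: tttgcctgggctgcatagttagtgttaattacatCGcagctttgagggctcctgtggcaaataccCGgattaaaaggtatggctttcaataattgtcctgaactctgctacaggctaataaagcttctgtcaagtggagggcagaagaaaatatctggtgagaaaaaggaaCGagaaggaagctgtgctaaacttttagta
Dpt: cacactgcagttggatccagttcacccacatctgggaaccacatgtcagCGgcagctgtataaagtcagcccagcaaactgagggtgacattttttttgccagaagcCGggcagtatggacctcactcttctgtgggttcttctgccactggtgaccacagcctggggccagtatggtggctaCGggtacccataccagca
Chrnb1: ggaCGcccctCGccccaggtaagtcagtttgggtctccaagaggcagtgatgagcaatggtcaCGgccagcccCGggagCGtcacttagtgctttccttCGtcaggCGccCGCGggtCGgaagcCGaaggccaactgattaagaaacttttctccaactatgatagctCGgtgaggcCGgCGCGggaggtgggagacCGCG
Met: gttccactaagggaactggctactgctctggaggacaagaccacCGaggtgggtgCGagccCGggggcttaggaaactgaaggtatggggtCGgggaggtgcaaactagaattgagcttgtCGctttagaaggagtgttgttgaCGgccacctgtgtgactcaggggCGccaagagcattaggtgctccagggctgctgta
The windows of Txlnb and Tek held 2 CG dinucleotides each, those of Dcn and Dpt held 3 each, that of Met held 7 and that of Chrnb1 held 17. The summits of Dcn, Dpt and Tek lay in exons, and those of Txlnb, Met and Chrnb1 in introns close to the start site.

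The members were peaks of modest height. The −log10 p that the peak caller gave an interval had a median of 7.38 in limb EGFP- cells (3.37 to 29.2) and of 7.29 in trunk EGFP- cells (3.47 to 25.6), where promoter regions marked in all 4 populations had medians of 22.8 and 21.1. The median fold over the local background was 3.82 for limb and 3.54 for trunk peaks. Medians of 18 limb reads and 20 trunk reads covered a member's summit, against 46 in each tissue at the promoters marked in all 4. The median width was 422 bp (interquartile range 317 to 558 bp), close to the 437 bp of the 812 promoter regions marked in both EGFP+ populations only and below the 847 bp of those marked in all 4. Of the members, 90.0% had a single summit in the limb and 86.9% in the trunk.

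Neither tissue was ahead in height. The limb −log10 p was the higher value in 182 of the 351 members (51.9%). The number of reads at the summit differed between the tissues by at most 2.75 times. Single members nevertheless ran far apart on the −log10 p scale. Sdk2, an adhesion molecule of the immunoglobulin family, held the highest limb value of 29.2, and Edaradd, an adaptor of the ectodysplasin receptor, had 6.24 in the limb and 18.2 in the trunk.

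**Figure D1:**
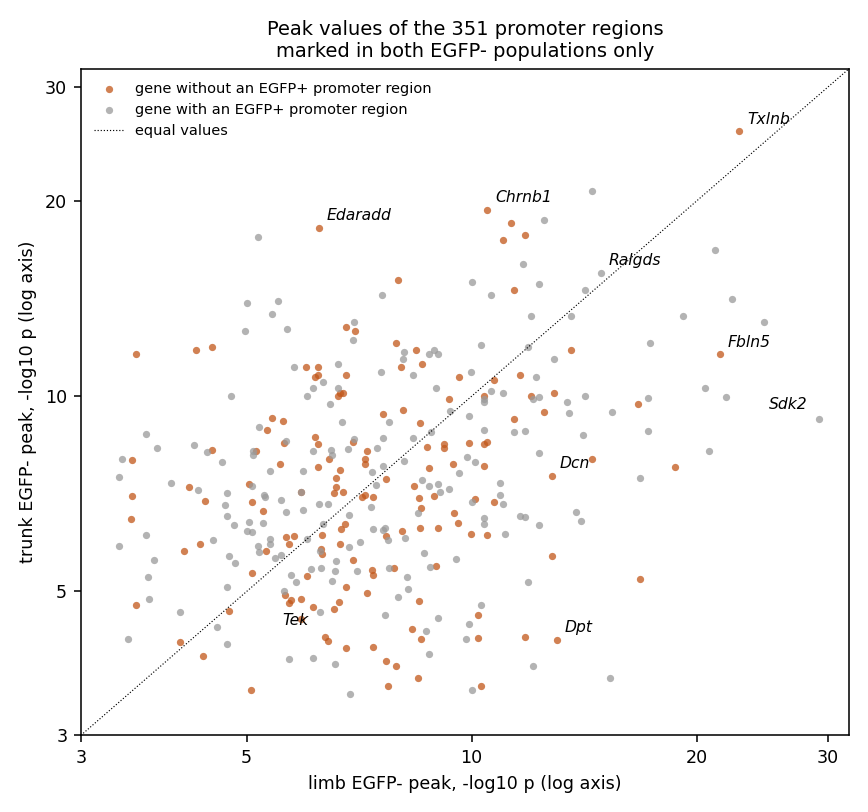
Each point is 1 of the 351 members, with the −log10 p of its limb EGFP- peak on the x axis and of its trunk EGFP- peak on the y axis, both on log axes. Orange points belong to genes without an EGFP+ interval at any promoter region and grey points to genes with one. The points spread on both sides of the dotted line of equal values, and Txlnb lies at the top right with 22.8 and 25.6.

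The share of members fell with peak strength. Among promoter regions with both EGFP- intervals, 19.7% were members where the lower of the limb and trunk −log10 p was under 5 (85 of 431), 11.9% from 5 to 7.5 (167 of 1403), 4.28% from 7.5 to 10 (64 of 1496) and 1.24% from 10 to 15 (33 of 2666). Above that, 1 region of 2075 from 15 to 20 and 1 of 2982 from 20 to 30 were members, and none of the 2698 regions at 30 or more was. The 2 members at 15 or more were Txlnb and St7. Promoter regions marked in both EGFP+ populations only had a larger share in each class, from 38.9% under 5 to 6.10% from 10 to 15. From 10 to 15, 94.6% of the promoters with both EGFP- intervals were marked in all 4. An interval missing from a list says only that no peak was called there. Signal below the caller's limit is not listed.

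**Figure D2:**
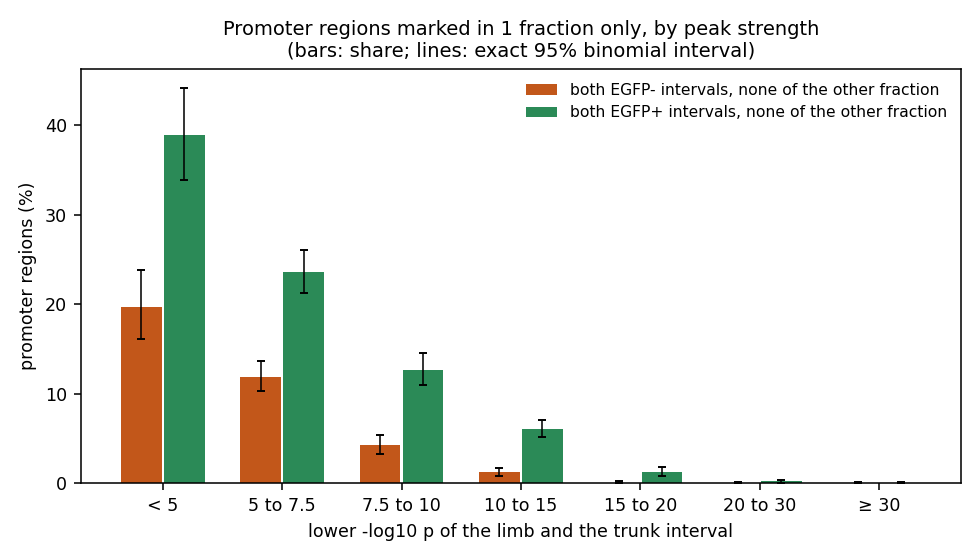
Bars give the percent of promoter regions with an interval in both populations of a fraction that had no interval of the other fraction, by the lower −log10 p of the 2 tissues, and lines give exact binomial 95% intervals. Orange bars are the members and fall from 19.7% to 0, and green bars are the EGFP+ counterpart.

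The edges of the rule are close. The 3 members nearest to an EGFP+ interval were those of Mtm1, a lipid phosphatase needed in muscle, at 3 bp, Dynlt1c at 13 bp and Insl6 at 16 bp. The 3 promoter regions kept out by the weakest EGFP+ peaks were those of Vwa3b, Zfp474 and Gdf11, whose strongest EGFP+ interval had a −log10 p of 3.40, 3.54 and 3.58. The Gdf11 region, at the gene of a signal of axial patterning, had 19.4 in limb EGFP- and 13.2 in trunk EGFP- cells. An EGFP+ interval lay within 500 bp of 106 members (30.2%) and within 1 kb of 132 (37.6%), and the median gap was 6155 bp.

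The members lay in the windows of 351 protein-coding genes, 1.63% of the 21562 annotated, and 19 members lay in windows of more than 1 gene. Of these genes, 151 had no EGFP+ interval at any of their promoter regions, and for 118 every marked promoter region was a member. The other 200 genes had an EGFP+ promoter region as well, which for 146 of them was a region marked in all 4 populations and for 16 a region marked in both EGFP+ populations only. Across all protein-coding genes, 47.3% had a promoter region marked in all 4 and 3.55% one marked in both EGFP+ populations only.

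Of the 15 strongest members by the lower −log10 p, all but those of Txlnb and Rassf2 belonged to genes that also had an EGFP+ promoter region. Txlnb, a muscle taxilin, came first with −log10 p of 22.8 in limb and 25.6 in trunk EGFP- cells and 36 and 38 reads at the summits. It had no EGFP+ promoter region, and the nearest EGFP+ interval was 71.9 kb away. St7 followed with 21.2 and 16.8 at a later start site, while its first one was marked in all 4. Ralgds, an exchange factor for Ral GTPases, was the widest member (1528 bp) with 14.9 and 15.5, and an interval of both EGFP+ populations ended 461 bp away. Celf2, a splicing regulator, had 20.7 in the trunk, with 30 limb and 39 trunk reads, at a start site 359 kb from the nearest EGFP+ interval. Ank3, the gene of ankyrin G, had 19.2 and 13.3, and Spry2, an inhibitor of growth factor signalling, had 12 and 13.3. Rassf2 had 13.6 and 11.8 and, like Txlnb, no EGFP+ promoter region. The rest of the first 15 were Smug1, a DNA repair enzyme, Gpr180, Khdc4, BC005537, Filip1l, the region at Adamts4, that of Bacc1 and Rnasek, and Vgll4, with lower values from 11.9 to 14.2 and an EGFP+ promoter region at each. At Khdc4, BC005537 and Bacc1 the nearest EGFP+ interval was 83, 89 and 78 bp from the member. After Ralgds the widest members were those of Enpp2 (1293 bp), which makes lysophosphatidic acid, Stard13 (1207 bp), Egfl6 (1152 bp) and Adamts4 (1094 bp).

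At 16 genes a member and a region marked in both EGFP+ populations only stood in windows of the same gene. At Art3 a member of −log10 p 13.8 in limb EGFP- cells stood apart from a region marked in both EGFP+ populations only (7.01 in the limb and 6.17 in the trunk). Grip1, a scaffold of glutamate receptors, and Dtna, a dystrobrevin, had the same arrangement, with limb EGFP- values of 6.49 and 6.42 at the members. Trim2, Enpp2, Nuak1, Sdk2, Rarg, Pmp22, Sp2, Rab3il1, Trabd2b, B3galt4, Zbtb12, Ralgds and St7 completed the 16 genes with both patterns. Col13a1, a transmembrane collagen, Tns1, a tensin of focal adhesions, and Shb, a signalling adaptor, each had 3 members, and Tns1 was the only one of 4 tensin genes with any. At Col13a1 these were its only marked promoter regions, with −log10 p of 7.62, 3.51 and 6.72 in the limb and 9.38, 7.01 and 10.1 in the trunk.

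Genes that define the cell types of the EGFP- fraction were rarely members. Lists of markers for 10 cell types other than chondrocytes held 295 genes, of which 13 had a member (4.41%, interval 2.37 to 7.42%, against 1.63% of all protein-coding genes). Of the 295, 155 had no promoter region in any population and 51 had one marked in all 4. Of the 13 genes, 10 had no EGFP+ promoter region. Those described next are ordered by tissue.

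In muscle, 2 of 30 regulators and progenitor genes and 2 of 34 sarcomere genes had a member. Chrnb1, a subunit of the muscle acetylcholine receptor, was the highest with −log10 p of 10.5 in limb and 19.4 in trunk EGFP- cells and 23 and 40 reads. Met, the receptor that muscle precursors need to migrate into the limb, had 6.58 and 7.48 with 13 and 14 reads, and no EGFP+ interval lay within 119 kb. Tnnt1, slow skeletal troponin T, had 7.20 and 7.05. Ryr1, the calcium release channel of skeletal muscle, had 6.30 and 6.12. The 4 genes were alike in having no EGFP+ promoter region. The myogenic factor genes themselves were no members: Pax3, Myod1 and Myf6 had no promoter region, and Myog had a single interval in limb EGFP+ cells at 5.81. Other muscle genes among the members, picked out after their values were seen, were Csrp3, a Z-disc protein (8.91 and 7.02), Dmpk, a muscle kinase (7.39 and 6.98), Myl3, a myosin light chain (6.58 and 5.58), and Mamstr, a MEF2 coactivator (11 and 6.82). Myl3 and Mamstr had an EGFP+ promoter region as well, and Csrp3 and Dmpk had none.

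In connective tissue, 3 of 42 genes had a member, while 24 of the 42 had a promoter region marked in all 4. Dcn, the proteoglycan decorin, had 12.8 in limb and 7.53 in trunk EGFP- cells, and 41 and 32 reads. Dpt, dermatopontin, had 13 and 4.21 with 27 and 13 reads, so that the limb value exceeded the trunk value at both. Igf1, a growth factor, had 5.29 and 6.98, with an EGFP+ interval 196 bp away. Among genes picked out afterwards, Fbln5, which assembles elastic fibres, had 21.5 and 11.6, and Clec3b, tetranectin, had 6.98 and 12.6. Kitl, the ligand of the Kit receptor, had 3.50 and 6.47, close to the lower limit of the lists. Acta2, smooth muscle actin, was the only one of 16 pericyte and smooth muscle genes, with 5.26 and 6.66.

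In vessels, 1 gene of the list had a member. Tek, the angiopoietin receptor, was the only one of 34 endothelial genes, with 6.14 and 4.73 and 13 reads in each tissue. Of the 34, 25 had no promoter region. Calcrl, an adrenomedullin receptor of vessels, had 10.7 and 10.6, and Heg1, an endothelial junction receptor, had 6.22 and 10.8. Both were picked out afterwards and had no EGFP+ promoter region.

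In nerve and skin the counts were small as well, although the Schwann cell, neural crest and melanocyte list had the highest share of the 10, 9.52% (interval 1.17 to 30.4%). Of 21 Schwann cell, neural crest and melanocyte genes, Erbb3, the neuregulin receptor, had a member at 11.8 and 6.51, and Ngfr, the low-affinity neurotrophin receptor, had one at 4.07 and 4.18. None of 30 neuronal genes and none of 15 osteoblast genes had a member, which allows shares of up to 11.6% and 21.8%. Grhl2, an epithelial transcription factor, was the only one of 41 skin genes, with 4.12 and 5.78. Among 27 chondrocyte genes 1 had a member, Wwp2, which hosts a microRNA of cartilage. It had 9.91 in the limb and 4.45 in the trunk, with an EGFP+ interval 192 bp away. By contrast 19 of these 27 had a promoter region marked in both EGFP+ populations only. At Col2a1 itself, the gene behind the sort, such a region had −log10 p of 18.7 in limb and 11.8 in trunk EGFP+ cells, and a neighbouring one was also marked in limb EGFP- cells at 5.67.

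Of 18 genes that the study's text names as markers, of limb cell clusters, of perichondrium or of tissues in the EGFP- fraction, Dcn, Dpt and Foxp2 had a member. Foxp2 had 3.79 and 8.31 at a start site far from its 2 regions marked in all 4. A promoter region of Foxp2 close to the member was marked in both trunk populations, with 9.01 in EGFP+ and 4.79 in EGFP- cells. Of the other 15, Col3a1, Foxp1 and Sox11 were marked in all 4, Runx2 in both EGFP+ populations only, and Kera, Msx1 and Myog in limb EGFP+ cells alone. Scx was marked in trunk EGFP+ cells alone, and Ebf2 in other mixtures. Krt14, Krt15, Col7a1, Pax3, Myod1 and Myf6 had no promoter region.

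**Figure D3:**
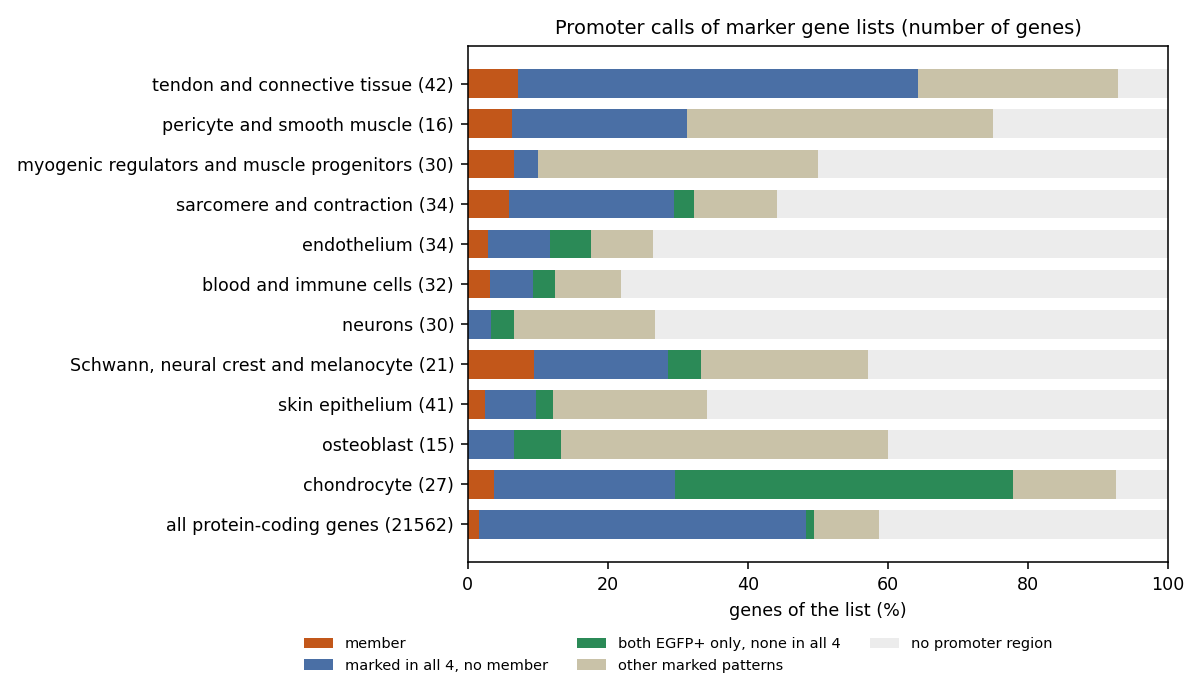
Bars split each marker list, with its number of genes in brackets, by the promoter calls of its genes in percent. The orange part, genes with a member, stays under 10% in each list and is absent for neurons and osteoblasts, while green, both EGFP+ only, fills much of the chondrocyte bar.

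The study's cluster markers of limb mesenchyme were counted in the same way, against 1.63% of all protein-coding genes and 2.77% of those with a promoter region. These lists come from single-cell RNA of limbs with the same sensor, so they are not independent of the design, and a gene can be in several. Of 120 interdigit mesenchyme markers 13 had a member (10.8%, interval 5.90 to 17.8%), of 126 pericartilaginous markers 11 (8.73%), of 252 dermis markers 19 (7.54%, 4.60 to 11.5%) and of 343 muscle connective tissue markers 20 (5.83%, 3.60 to 8.86%). Chondrocyte markers had 5 of 126 (3.97%), tendon markers 7 of 218 (3.21%), perichondrium markers 1 of 33 and pre-osteoblast markers 3 of 178 (1.69%). In the study's list of chondrogenic genes 12 of 641 had a member (1.87%) and 176 a promoter region marked in both EGFP+ populations only. That list has 779 entries, and 641 of them were counted here as protein-coding genes. The cluster lists lost fewer entries, with 126 of 135 chondrocyte and 343 of 354 muscle connective tissue entries counted. Broad marking was common in these lists, with 91 of the 120 interdigit genes marked in all 4. Many genes with a member had an EGFP+ promoter region as well. They were 10 of the 13 interdigit, 6 of the 11 pericartilaginous and 13 of the 19 dermis genes. The same held for 14 of the 20 muscle connective tissue, all 5 chondrocyte and 3 of the 7 tendon genes. Over genes with a promoter region the shares were 11.3% for interdigit, 9.17% for pericartilaginous, 8.09% for dermis, 6.27% for muscle connective tissue and 3.29% for tendon markers, beside 9.29% for the 10 cell type lists together.

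Members at interdigit and dermis markers included signals, adhesion molecules and transcription factors. Wnt5a, a signal for limb outgrowth, had 10.3 and 12, and Dkk2, a Wnt modulator, had 9.45 and 7.85 and no EGFP+ promoter region. Mmp11, a matrix protease, shared its member with Chchd10 at 4.70 and 6.54. Cdh6, a cadherin, had 5.61 and 5.01, and Zeb2, a repressor of epithelial genes, had 5.70 and 3.94. Irx3, a homeobox factor, had 6.66 and 7.69, and Tnfrsf19 had 5.17 and 17.6. At Thy1, a surface protein of fibroblasts, the values were 6.78 and 4.09. Like Dkk2, Irx3 and Thy1 had no EGFP+ promoter region, while Wnt5a, Mmp11, Cdh6, Zeb2 and Tnfrsf19 had one.

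**Figure D4:**
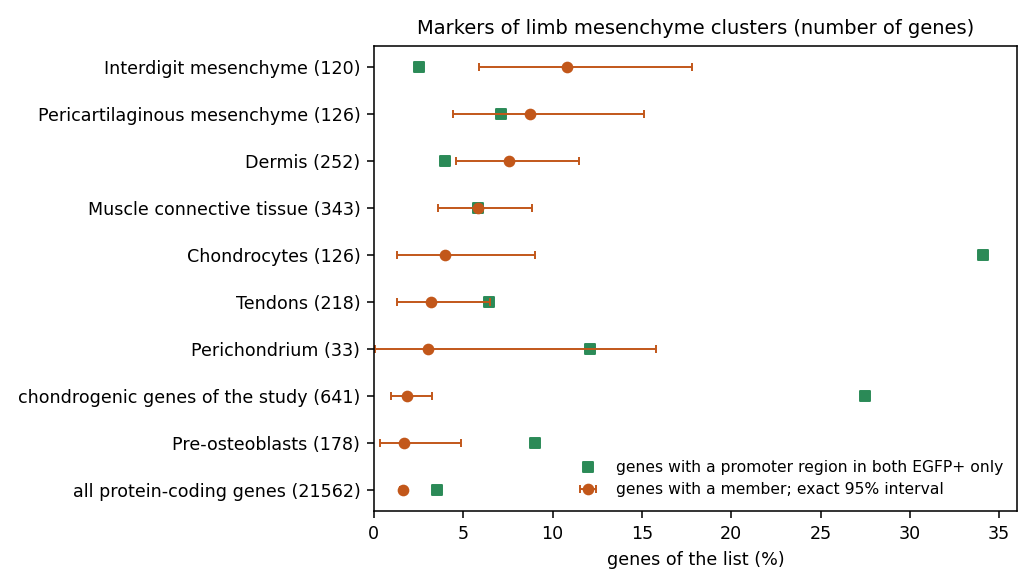
Points give the percent of each list's genes with a member, with exact binomial 95% intervals, and squares the percent with a promoter region marked in both EGFP+ populations only. Interdigit mesenchyme is highest for members at 10.8%, and chondrocytes and chondrogenic genes are highest for squares.

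By gene family the members were spread thinly. G protein-coupled and adhesion receptors had 6 of 112 (5.36%, interval 1.99 to 11.3%), with Gpr180 (22.3 and 14.1) and Adgrl2 (6.84 and 8.28) the first by strength. Wnt and Frizzled genes had 2 of 29, Wnt5a and Fzd10, the latter with 2 members of 7.20 and 6.0 in the limb and 7.87 and 11.1 in the trunk. A list of 113 homeobox genes outside the Hox clusters had 3, Emx2 (12 and 10.0), Irx3 and Pou2f3 (4.40 and 6.90), none with an EGFP+ promoter region. That list is not complete. The zinc finger homeobox genes Zeb2, Tshz3 and Zfhx2 are outside it and had members too, and Zeb2 and Tshz3 had an EGFP+ promoter region. The Hox clusters had 1 of 39, Hoxd11, at 4.71 and 5.08. Solute carriers had 6 of 376 (1.60%) and Zfp zinc fingers 6 of 419 (1.43%), near the 1.63% of all genes. The first by strength were Slc48a1 (16.7 and 9.73), Slc35e3 (10.4 and 7.81) and Slc6a6, a taurine transporter (6.63 and 11.2), among the carriers, and among the zinc fingers Zfp217 (10.4 in the limb), Zfp605, which shares its member with Gtpbp6 (6.94 and 12.2), and Zfp984 (6.44 and 8.0). Semaphorin, plexin, ephrin and Eph genes had 2 of 55, Sema4d (8.77 and 7.26) and Sema6d (3.41 and 8.01), and cadherin and claudin genes 2 of 138, Pcdh19 and Cdh6. Single members were at Col13a1 among 44 collagens, Itga4 among 41 laminins and integrins, Krt80 among 50 keratins and Foxp2 among 45 forkhead factors. Ribosomal proteins had 1 of 99, Rpl22, and 88 of the 99 were marked in all 4. None of 1138 olfactory receptors, 144 interleukin and chemokine genes, 40 Bmp, Gdf and Tgfb ligands, 26 Fgf genes, 81 potassium channels, 20 receptor tyrosine phosphatases, 19 Sox factors and 16 T-box factors had a member.

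A pair of small pathways stood out when the member genes were read, and their lists were drawn up after the values were seen. Neurotrophins are survival factors of sensory and sympathetic neurons. Members were at the ligands and receptors Ntf3 (12.5 in limb and 9.46 in trunk EGFP- cells), Ntf5 (6.29 and 5.81), Ngfr (4.07 and 4.18) and Sort1, sortilin (7.35 and 7.63). Bdnf had only trunk intervals, one of them in both fractions, Ntrk2 had a mixture, and Ntrk3 had no promoter region. The nearest EGFP+ interval lay 17.5 kb from the member of Ntf5 and 57.5 kb from that of Ntf3. Sort1 differed, with a region marked in all 4 beside its member, at 35.6 in limb and 14.3 in trunk EGFP+ cells. The ectodysplasin pathway directs the development of hair and glands. Its ligand Eda (9.83 and 4.23), adaptor Edaradd (6.24 and 18.2) and the related receptors Eda2r (5.08 and 6.88) and Tnfrsf19 (5.17 and 17.6) had members. Edar had no promoter region. These were 4 of 5 genes, beside 1.63% of all protein-coding genes, in a list drawn up with the members known. Eda and Tnfrsf19 had an EGFP+ promoter region as well, that of Eda with 13.2 in limb and 9.97 in trunk EGFP+ cells.

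Members differed from broadly marked promoters in sequence, which the selection did not use. Within 250 bp of the summit the median GC content was 54.3% and the median ratio of observed to expected CpG was 0.464, against 58.5% and 0.688 at promoters marked in all 4. Windows rich in CpG, with a GC content over 50% and a ratio over 0.6, made up 26.2% of members (92 of 351, interval 21.7 to 31.1%), 37.1% of promoters marked in both EGFP+ populations only (33.7 to 40.5%) and 63.3% of those marked in all 4. Of the 1328 promoters marked in a single EGFP- population alone, 23.6% were rich in CpG (21.4 to 26%), which overlaps the members. The gap to promoters marked in all 4 was also there at like strength among weaker peaks. With a lower EGFP- −log10 p from 5 to 7.5, 21.6% of 167 members and 48.2% of 982 promoters marked in all 4 were rich in CpG. From 7.5 to 10 the shares were 35.9% (24.3 to 48.9%) and 51.0% (48.2 to 53.7%), and the intervals just overlapped. From 10 to 15 the intervals overlapped too, with 48.5% of 33 members (30.8 to 66.5%) and 58.4% of 2521.

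Over all strengths together, the position of the summit differed less. Of the members 78.1% had the summit within 500 bp of a start site, against 86.1% of promoters marked in all 4 and 73.2% of those marked in both EGFP+ only. The window of a canonical start site, the main one in the annotation, held 70.7%, 90.0% and 69.6% of these sets. At like strength this gap to promoters marked in all 4 was not smaller throughout. With a lower EGFP- −log10 p from 7.5 to 10 the shares were 68.8% of members (55.9 to 79.8%) and 85.3% (83.3 to 87.2%). From 10 to 15 they were 69.7% (51.3 to 84.4%) and 87.0% (85.6 to 88.3%), with no overlap of the intervals. Members of genes without an EGFP+ promoter region lay at a canonical start in 83.4% of 151 and members of genes with one in 61.0% of 200. Summits fell in an exon at 35.3% of members, in an intron at 41.3% and outside genes at 23.4%.

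Distal regions with the same pattern were counted near members. A distal region marked in both EGFP- populations only lay within 50 kb of 57 members (16.2%, interval 12.5 to 20.5%), of 10.0% of promoters marked in all 4 and of 10.3% of those marked in both EGFP+ only (8.34 to 12.6%). Promoters of a single EGFP- population, the set most like the members, had 13.2% (11.4 to 15.1%), which overlaps the members' interval. For distal regions of both EGFP+ populations only the order turned, with 22.5% of members, 19.5% of promoters marked in all 4 and 35.5% of those marked in both EGFP+ only (32.2 to 38.9%). Promoters of a single EGFP- population had 19.9%. These shares rest on the same 4 peak lists as the selection and were not tested.

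**Figure D5:**
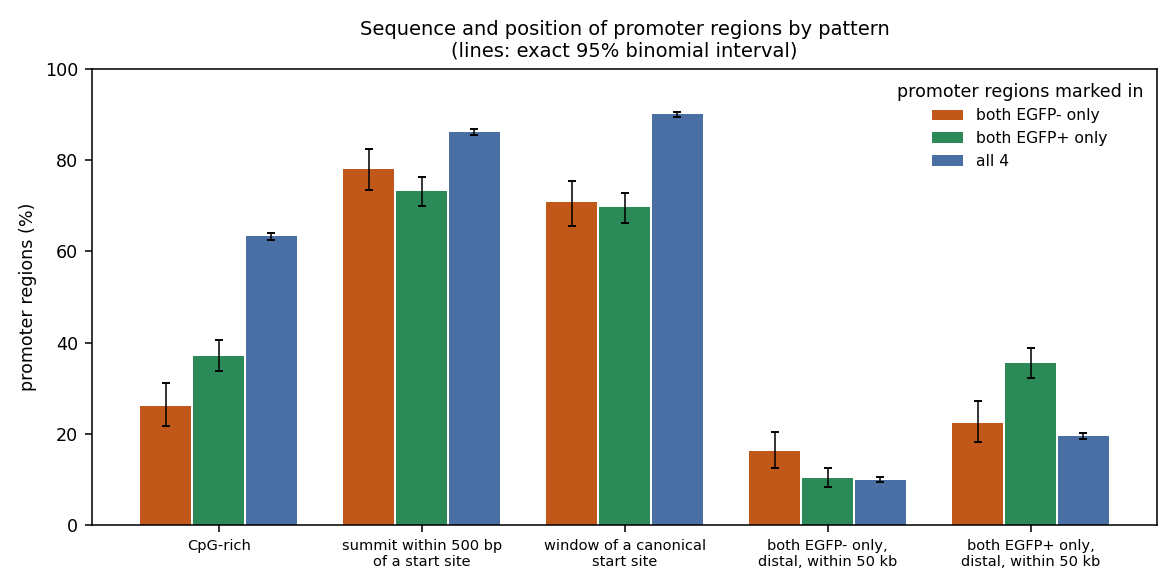
Bars give the percent of promoter regions with each property for the members (orange), promoters marked in both EGFP+ populations only (green) and in all 4 (blue), and lines give exact binomial 95% intervals. Of these 3 sets the members are lowest for CpG-rich windows at 26.2% and highest for distal regions of both EGFP- only at 16.2%.

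Short motifs were counted on both strands within 250 bp of the summit, and matches are letters, not binding. The SOX motif ACAAAG was in 35.0% of members (interval 30.1 to 40.3%), 26.2% of all promoter regions and 24.5% of those marked in both EGFP+ only. Promoters of a single EGFP- population had it in 31.6% (29.1 to 34.1%), an interval that overlaps the members'. The motif of GATA factors (spelled AGATAA) was in 17.9% against 12%, the core promoter box (spelled TATAAA) in 16.5% against 10.9%, the E-box CAGCTG in 30.2% against 24.3% and the ETS core AGGAAG in 55.3% against 48.6% of all. In promoters of a single EGFP- population these 4 shares were 14.9%, 15.7%, 31.7% and 50.2%, and the E-box was in 30.2% of promoters marked in both EGFP+ only, as in the members. The GC box GGGCGG was in 45.0% against 57.6% and the TFAP2 motif GCCNNNGGC in 20.2% against 30.5%, with 40.3% and 24.8% in promoters of a single EGFP- population. In windows poor in CpG the SOX shares were 38.2% of 259 members (32.3 to 44.4%) and 32% of all 9245, with 34.3% in promoters of a single EGFP- population, the core promoter box shares 18.1% and 15.1%, and the E-box shares 33.2% and 27.5%. CpG content moved with each of these shares, and its part in them was not tested beyond that split.

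How firmly a member is called depends on its strength. Where both EGFP- intervals were required to reach a −log10 q of 5, 98 of the 351 members were left, in windows of 106 genes, of which 41 had no EGFP+ promoter region. Chrnb1 was among them, and so were Ntf3 and Tns1, while Met, Tnnt1, Ryr1, Tek, Dcn, Dpt and Acta2 were not. Without the members that had an EGFP+ interval within 1 kb, 219 members and 10 of the 13 cell type genes were left, and Erbb3 and Igf1 were among those that dropped out. Intervals in brackets cover counting error only.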

How the data were processed

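H3K27ac ChIP-seq peak lists of 4 sorted populations were used, with 1 library each. The authors sampled about equal numbers of reads per library, trimmed them with cutadapt 1.18, mapped them with Bowtie2 2.3.5.1 on GRCm39, kept reads with a mapping quality of at least 30 and called summits per library with MACS2 2.2.7.1, extending reads to 200 bp. No control library or q threshold is given in the sources used here, and the lowest −log10 q is 1.30 in each list. The deposited score is 10 times the −log10 q without decimals. The deposited fold is the ratio of summit pileup to local background, and the deposited −log10 p and −log10 q are the authors' MACS2 values. Read length was 50 or 100 bases and is not assigned to libraries.

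Rows that shared both ends became 1 interval, keeping the summit of highest −log10 p, on chromosomes 1 to 19, X and Y (34360 limb EGFP- and 30716 trunk EGFP- intervals, 40899 limb EGFP+ and 36231 trunk EGFP+). Overlap meant at least 1 bp. Start sites were the 67388 of protein-coding transcripts in GENCODE release 39 of GRCm39. Reads at a summit and the background follow from fold and −log10 p and were recovered for 100% of summits (tolerance 0.001). Median summits held 26 to 29 reads. Without replicates no test between populations was made. Shares carry exact (Clopper-Pearson) 95% intervals, which cover counting error only. Distal regions lay outside all promoter windows.

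The members and lists were chosen with earlier results of these data known. Named genes were up to 4 per cell type list and 3 per family by the lower EGFP- −log10 p, the 15 strongest and 5 widest members, the markers the study names, and 3 regions on each side of the rule. Others are marked as picked afterwards, and so are the genes with several members or with both patterns and the mesenchyme examples. Alternatives were a −log10 q of at least 5, list length, fold, EGFP+ distance, merging, window, start sites and chromosomes. The steps were tested on simulated data. A few genes that the naming rule gives are not reported here. Tools were samtools 1.23.1, matplotlib 3.10.9, pysam 0.24.0, scipy 1.17.1, pandas 2.3.3, numpy 2.4.6 and Python 3.11.15.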

Additional observations from a re-analysis of the deposited data

How the results depend on the processing

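No paired analysis was possible because each population had 1 library, and for the same reason no replicate could be left out. As reported there were 351 members, at 351 genes, 151 of them without an EGFP+ promoter region, and 13 genes of the 10 cell type lists. When every interval had to reach a −log10 q of 5, the counts were 222 members, 229 genes, 93 genes without an EGFP+ promoter region and 4 list genes. Only 98 of the 222 overlapped a reported member, since removing weak EGFP+ peaks makes new members. With that limit on both EGFP- lists alone the counts were 98, 106, 41 and 2. Leaving out members with an EGFP+ interval within 1 kb gave 219 members and 216 genes. A fold of at least 4 in all lists gave 8 list genes. These 4 counts otherwise stayed within 1.5 times of their reported values, but not always with the same regions. Of the counts of single gene lists, most of them under 5, 82 stayed within 1.5 times and 38 did not. Keeping the 20000 strongest intervals of each list gave 405 members, of which 22.2% overlapped a reported one, and a fold of at least 4 gave 251, of which 34.7% did. Merging within 500 bp gave 262 members, a window of 500 bp on each side 316, canonical start sites alone 248, chromosomes 1 to 19 alone 337 and, added after the values were seen, start sites of every transcript 405. Medians of 18 and 20 reads lay at a member's limb and trunk summits, and the part of depth in the calls was not tested.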
